A study of Mus musculus with 2 samples.

Results

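Genes of the circadian clock and its direct output were followed in the large calf muscle, the gastrocnemius. The animals were B6CASTF1/J males of 14 days, the first-generation offspring of C57BL/6J and CAST/EiJ parents. The genes were chosen by symbol and role, 10 of the 55536 annotated genes in the tables: the activators Arntl and Clock, the repressors Per1, Per2, Per3, Cry1 and Cry2, and the output factors Dbp, Tef and Hlf. Total RNA was sequenced in 1 group of 2 libraries, replicate 1 and replicate 2, which the labels number as biological replicates. Each library began with 300 ng of RNA, to which synthetic ERCC RNAs were added. The labels name 3 males and give both libraries the same donor identifier, so it is not settled whether a library was made from 1 animal or a pool, or whether the libraries share animals, and the spread between them may be technical. No treatment and no time of day of collection were stated in the labels, so no rhythm was measured. With 1 group, the comparisons were between genes, between the libraries and between the authors' 2 quantifications of each library.

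The circadian clock is a feedback loop of transcription. CLOCK and BMAL1, the protein of Arntl, bind E-boxes as a pair and switch on the Per and Cry genes, whose proteins return to the nucleus and block that pair. In a second loop REV-ERB proteins (Nr1d1, Nr1d2) and ROR proteins compete for ROR elements (RORE) and set the level of Arntl. DBP, TEF and HLF are transcription factors of the PAR-bZIP family that act on D-boxes, against the repressor NFIL3, and pass the rhythm on to other genes. Skeletal muscle has such a clock of its own, known for pacing genes of fuel use. The levels of most of these messages depend on the time of day.

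The tables held 40825601 expected counts (estimated reads) for replicate 1 and 37329025 for replicate 2. The markers of fast muscle fibres were all detected (9 of 9, at a median of 10903 TPM, a level per transcript length, scaled to the same total in each library), which matched the labelled tissue, while none of 5 lymphocyte markers reached 1 TPM in both libraries. Between the libraries, 9 of 9 fast fibre markers and 5 of 5 erythroid markers were higher in replicate 2, as were 4 of 5 adipocyte markers. Of all genes tested, 10.6% were called higher in replicate 2 and 10.7% higher in replicate 1. Among genes counted 535 times or more, the shares were 18.6% and 15.3%. In scaled counts the median log2 difference, replicate 1 minus replicate 2, was -0.14 for fast fibre, -0.52 for erythroid and -2.73 for adipocyte markers. At high counts small differences were called, such as log2 -0.08 for the fast fibre gene Myh4 (2274929 counts in replicate 1 and 2165334 in replicate 2). Scaling by the added ERCC RNAs moved differences by a median of log2 0.29 toward replicate 1, a larger step than the fast fibre median. The summed levels were 121115 TPM in replicate 1 and 130558 in replicate 2 for the fast fibre list, 1392 and 1958 TPM for the erythroid list, and 173 and 146 TPM for the adipocyte list, of which Fabp4, also made by endothelial cells, gave 171 and 130 TPM. Genes were also called in the lists of slow fibres (2 of 6, higher in replicate 1), endothelium (3 of 6, higher in replicate 1), fibro-adipogenic progenitors (3 of 6), macrophages (1 of 6), Schwann cells (3 of 6, higher in replicate 2) and satellite cells (2 of 5, higher in replicate 1). Their part in the results below was not tested. In a whole tissue, fewer cells of a type and less RNA per cell cannot be told apart.

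All 10 genes were detected in both libraries, each at 1 TPM or more and with 232 to 4984 counts per library. The mean levels spanned from 1.57 ± 0.247 TPM for Hlf to 47.4 ± 6.46 TPM for Tef (SD, n = 2 for both). The output factor Tef and the repressor Per1 stood above the other 8 genes, with a mean of 31.6 ± 4.78 TPM for Per1 and of at most 9.84 ± 0.587 TPM, that of Cry2, for those 8 (SD, n = 2 for each). Among the 11077 nuclear protein-coding genes averaging 1 TPM or more, whose median was 7.55 TPM, Tef ranked 1075 and Per1 ranked 1596 from the highest. Cry2 (rank 4615) and Dbp (rank 4692) lay just above the middle of this order, and the other 6 genes below it.

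**Figure D1:**
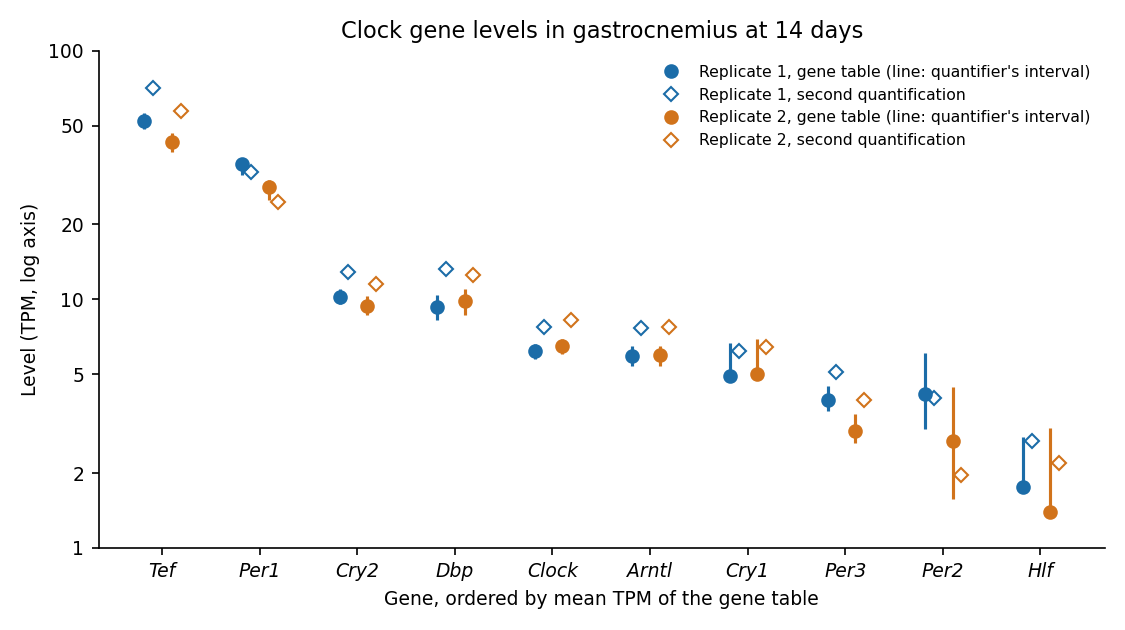
Level of each clock gene in TPM (log axis), with filled circles for the gene table, vertical lines for the interval given by the authors' quantifier, and open diamonds for the second quantification, in blue for replicate 1 and orange for replicate 2. Tef and Per1 stand above the other genes in both libraries and both quantifications, Cry2 and Dbp overlap, and Hlf is lowest in the gene table.

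In the order of mean levels, Tef was followed by Per1, Cry2, Dbp, Clock, Arntl, Cry1, Per3, Per2 and Hlf. The library values of neighbours in this order lay apart in all steps but Cry2 to Dbp and Per3 to Per2. The intervals of the authors' quantifier also overlapped, in at least 1 library, for the steps Clock to Arntl, Arntl to Cry1 and Per2 to Hlf. The steps Tef to Per1, Per1 to Cry2, Dbp to Clock and Cry1 to Per3 were therefore the ones where both measures lay apart. Summed by role, the 3 output genes had 63.1 TPM in replicate 1 and 54.1 in replicate 2, the 5 repressors 58.3 and 48.3 TPM, and the 2 activators 12.1 and 12.5 TPM.

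The activators had similar TPM, close to each other and between the libraries. Arntl, which encodes BMAL1, the partner that the loop cannot do without (ENSMUSG00000055116.8, chromosome 7, 113207465 to 113314126), had 5.93 TPM in replicate 1 and 5.98 in replicate 2. Clock, its DNA-binding partner (ENSMUSG00000029238.11, chromosome 5, 76209868 to 76304792), had 6.20 TPM in replicate 1 and 6.50 in replicate 2. The within-library ratio of Arntl over Clock was 0.938 ± 0.0258 in TPM (SD, n = 2), so the partners' messages were estimated at nearly equal numbers. In counts, where a longer transcript yields more reads, the ratio was 0.372.

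The related activator genes were much lower. Npas2, a paralogue that can stand in for Clock, had 1.43 TPM in replicate 1 and 0.95 in replicate 2, and Arntl2, the paralogue of Arntl, had 0.69 and 0.19 TPM. Both lay below every value of Arntl and Clock.

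One of the searched RORE forms lies just inside the Arntl gene and is shown because this element ties Arntl to the second loop. It stands 28 to 37 bases after the downstream one of the RefSeq start sites of Arntl (chr7:113207528-113207557, plus strand, GRCm38.p6, in an annotated exon), with the match in capitals.
Arntl: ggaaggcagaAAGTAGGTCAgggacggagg
The letters searched were AAN followed directly by TAGGTCA, on both strands, in windows from 250 bases before to 50 bases after a start. Of all 32851 RefSeq windows of that length, 0.219% held a match. In GENCODE, the transcript Arntl-201 starts at the upstream one of these sites and took 71.7 ± 1.24% of the gene's TPM (SD, n = 2). In the second quantification its share was 58.2% in replicate 1 and 72.8% in replicate 2.

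Among the Per genes, Per1 was by far the most abundant. Per1 (ENSMUSG00000020893.17, chromosome 11, 69095217 to 69109960) had 34.97 TPM in replicate 1 and 28.21 in replicate 2. Per2, the period gene most needed for a lasting rhythm in mice (ENSMUSG00000055866.9, chromosome 1, 91415982 to 91459324), had 4.16 TPM in replicate 1 and 2.68 in replicate 2. Per3, a period gene that mice can lose with little effect on the central rhythm (ENSMUSG00000028957.12, chromosome 4, 151003652 to 151044665), had 3.95 TPM in replicate 1 and 2.94 in replicate 2. All 3 were higher in replicate 1, and the ranges of Per2 and Per3 overlapped. The within-library ratio in TPM was 9.47 ± 1.5 for Per1 over Per2 and 9.22 ± 0.525 for Per1 over Per3 (SD, n = 2 for both), and 0.982 ± 0.1 for Per2 over Per3 (SD, n = 2).

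Short transcripts carried a large part of the TPM of Per1 and Per2 in the gene table. The transcript Per1-204, of 496 bases, received 131 counts in replicate 1 and 111 in replicate 2, 3.93% of the gene's counts, but 10.3 and 9.30 TPM, 31.2 ± 2.52% of its TPM (SD, n = 2). The transcript Per2-202, of 231 bases and without a coding class, received 4.39 counts in each library, yet 33.2 ± 11.6% of the gene's TPM (SD, n = 2). In the second quantification both were listed at 0 in both libraries. Without them, Per1 had 24.7 TPM in replicate 1 and 18.9 in replicate 2 in the gene table's quantification, and Per2 had 3.12 and 1.57 TPM. In the second quantification Per1 stood at 32.5 and 24.7 TPM, Per2 at 4.01 and 1.97 TPM and Per3 at 5.11 and 3.93 TPM, so the ratio was 0.643 ± 0.2 for Per2 over Per3 and 6.33 ± 0.0427 for Per1 over Per3 (SD, n = 2 for both).

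The sequences before the start sites of Per1 and Per3 are shown because these genes differed between the libraries in the same direction. The search found different clock elements in their windows. Bases outside the windows were not searched, and a link to the difference between the libraries was not tested. The 249 bases before the first exon of Per1-201 (chr11:69098699-69098947, plus strand, GRCm38.p6) hold 1 E-box, CACGTG, at positions -166 to -161 from the upstream RefSeq start, in capitals.
Per1: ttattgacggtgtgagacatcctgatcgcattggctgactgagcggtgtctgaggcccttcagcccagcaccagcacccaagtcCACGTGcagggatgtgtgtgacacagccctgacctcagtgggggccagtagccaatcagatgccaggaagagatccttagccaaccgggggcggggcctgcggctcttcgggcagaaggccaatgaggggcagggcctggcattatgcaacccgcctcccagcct
The 250 bases before the start of Per3 (chr4:151044666-151044915, minus strand, GRCm38.p6) hold no CACGTG but 2 copies of a D-box, TTATGTAA, at positions -205 to -198 and -158 to -151 from the start, in capitals.
Per3: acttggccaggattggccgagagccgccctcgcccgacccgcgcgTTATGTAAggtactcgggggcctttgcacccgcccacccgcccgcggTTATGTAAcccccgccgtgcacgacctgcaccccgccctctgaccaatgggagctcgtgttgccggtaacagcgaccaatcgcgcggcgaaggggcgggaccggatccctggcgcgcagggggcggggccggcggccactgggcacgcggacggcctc
An E-box stood in 7.15% and a D-box (searched as TTANGTAA on both strands) in 2.32% of all RefSeq windows. Neither search says whether a factor binds there in this muscle. Per1-201, which starts at the window with the E-box, took 59.3 ± 2.08% of the gene's TPM (SD, n = 2) and 85.9% of its counts. In the second quantification Per1-201 took 55.4% of the TPM in replicate 1 and 84.5% in replicate 2. Per1-202, which starts 3732 bases further upstream, took 8.96 ± 4.55% of the TPM in the first (SD, n = 2).

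Of the Cry genes, Cry2 was the higher in both libraries. Cry2 (ENSMUSG00000068742.11, chromosome 2, 92403646 to 92434043) had 10.25 TPM in replicate 1 and 9.42 in replicate 2. Cry1, the stronger repressor of the pair in mouse cells (ENSMUSG00000020038.10, chromosome 10, 85131700 to 85185064), had 4.93 TPM in replicate 1 and 5.02 in replicate 2. Cry2 was 1.98 ± 0.143 times Cry1 in TPM (SD, n = 2) and 1.94 ± 0.198 times in the second quantification (SD, n = 2), and the libraries did not overlap between the genes.

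The stretch before Cry1 is shown because it was the only one of the 14 windows with both kinds of E-box. It covers 240 bases before the first exon of Cry1 (chr10:85185065-85185304, minus strand, GRCm38.p6), with CACGTG at positions -60 to -55 and the variant AACGTG at positions -79 to -74 from the RefSeq start in capitals.
Cry1: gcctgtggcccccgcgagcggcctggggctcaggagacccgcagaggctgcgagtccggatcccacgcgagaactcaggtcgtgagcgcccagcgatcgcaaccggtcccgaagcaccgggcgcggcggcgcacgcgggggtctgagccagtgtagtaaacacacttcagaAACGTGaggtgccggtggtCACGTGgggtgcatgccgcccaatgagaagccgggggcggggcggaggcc
The variant (searched as CACGTT on both strands) stood in 4.68% of all windows. Cry2 held the variant alone, at positions -166 to -161 from its start. Almost all Cry1 RNA was the full-length coding transcript Cry1-201, with 98 ± 2.87% of the gene's TPM, and Cry2-201 took 87.7 ± 0.372% (SD, n = 2 for both).

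In the gene table the PAR-bZIP outputs held both the highest and the lowest of the 10 genes. In the second quantification Per2, at 1.97 TPM, was lower than Hlf, at 2.19 TPM, in replicate 2. Tef (ENSMUSG00000022389.15, chromosome 15, 81802421 to 81826863) was at 52.01 TPM in replicate 1 and 42.88 in replicate 2. Dbp, an output factor directly driven by E-boxes (ENSMUSG00000059824.12, chromosome 7, 45705088 to 45710203), had 9.30 TPM in replicate 1 and 9.86 in replicate 2. Hlf (ENSMUSG00000003949.16, chromosome 11, 90336536 to 90390895) was at 1.75 TPM in replicate 1 and 1.40 in replicate 2. Tef was 30.2 ± 0.642 times Hlf, Dbp was 6.18 ± 1.22 times Hlf, and Dbp was 0.204 ± 0.0362 times Tef in TPM (SD, n = 2 for each). For Hlf the quantifier's own interval in replicate 2, from 1.47 to 3.04 TPM, lay above its listed value, so its level is uncertain, and the second quantification gave 2.70 TPM in replicate 1 and 2.19 in replicate 2.

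Most Tef RNA was given to the coding transcripts Tef-202 and Tef-201, which start in different first exons. Tef-202, which starts 252 bases before the upstream RefSeq start, took 40.0 ± 3.74% of the gene's TPM and 55.3% of its counts, and Tef-201, which starts at the downstream one, took 30.3 ± 0.503% of the TPM and 38.9% of the counts (SD, n = 2 for both shares of TPM). Both shares were near these values in the second quantification, at 35.2 and 40.2% for Tef-202 and 27.0 and 27.7% for Tef-201 in replicates 1 and 2. The coding transcript Tef-206, of 477 bases, starts 368 bases before the downstream RefSeq start and took 11.1 ± 2.19% of the TPM (SD, n = 2) but 1.36% of the counts, and 5.22 and 0.0199% of the TPM in the second quantification. An E-box stood before each RefSeq start of Tef. The site at the upstream start is given with its flanks alone, since it lies in the first exon of Tef-202 (chr15:81802534-81802563), and the site at the downstream start with the 250 bases before it (chr15:81811164-81811413), both on the plus strand of GRCm38.p6 with CACGTG in capitals.
Tef upstream start: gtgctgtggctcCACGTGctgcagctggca
Tef downstream start: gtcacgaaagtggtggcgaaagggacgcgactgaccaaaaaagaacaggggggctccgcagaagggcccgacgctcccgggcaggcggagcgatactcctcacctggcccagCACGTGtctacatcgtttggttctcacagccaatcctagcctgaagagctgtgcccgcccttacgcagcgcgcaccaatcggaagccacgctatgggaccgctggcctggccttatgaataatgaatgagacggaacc

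Across the members, RefSeq windows were matched for 9 of the 10 genes, 14 windows in all, and not for Per2. E-boxes stood in 4 windows of 3 genes (Per1, Cry1 and Tef), the E-box variant in 2, the D-box in 1, the RORE in 1 and a cyclic AMP element (TGACGTCA, in 1.79% of all windows) in 1, that of Hlf. A glucocorticoid element, searched on both strands as GNACA and TGTNC with 3 bases between them, stood in none of the 14 windows and in 0.475% of all windows. The windows of Clock and Dbp held none of the searched letters, which says nothing on sites elsewhere in these genes.

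**Figure D2:**
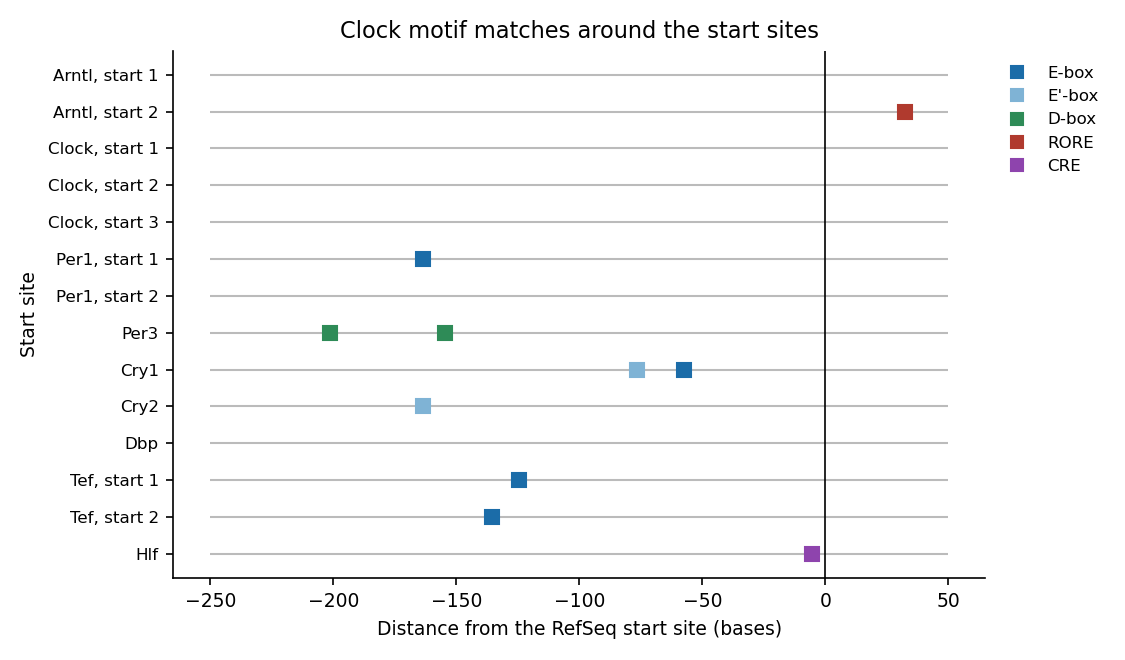
Motif matches around the RefSeq start sites of 9 clock genes, from 250 bases before to 50 bases after each start, with squares at the middle of each match and the vertical line at the start site. The 4 E-boxes lie in windows of Per1, Cry1 and Tef, the 2 D-boxes both in that of Per3, and the RORE after the second start of Arntl.

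A part of the RNA of some clock genes was given to transcripts of a class other than protein_coding. The share of TPM was 38.3 ± 3.77% for Dbp, 33.2 ± 11.6% for Per2 and 32.1 ± 4.47% for Per3 (SD, n = 2 for each). The median was 11% over 8957 protein-coding genes at 1 TPM or more that have such a transcript, and 14.3% in the second quantification. Arntl, Per1, Cry1, Cry2 and Hlf lay below 11% in the first. For Dbp most of it was the retained-intron transcript Dbp-202, with 34.8 ± 3.99% of TPM (SD, n = 2). Dbp-202 has 815 bases and took 20.1% of the gene's counts. The second quantification gave Dbp transcripts outside the protein_coding class at 51.7 and 38.3% in replicates 1 and 2. The share of Per3 was similar in the second quantification (26.3 and 33.0%), and that of Per2 was 0% there. For Tef and Hlf the share was larger in the second quantification, at 32.6 and 32.0% for Tef beside 18.1 ± 1.35% in the first, and at 15.3 and 28.7% for Hlf beside 2.29 ± 3.23% (SD, n = 2 for both). For Clock the share was 16.3 ± 7% (SD, n = 2), and 17.9 and 7.85% in replicates 1 and 2 of the second quantification. The rest went to Clock-201 (46.5 ± 3.11%), Clock-205 (25.6 ± 4.04%) and Clock-204 (11.6 ± 6.07%), all coding (SD, n = 2 for each). Exons of Dbp overlap those of Sphk2 on the opposite strand over 539 bases, 18.0% of the exon bases of Dbp. Sphk2 had 529 and 495 counts, and reads from this stretch are uncertain unless strand was used in counting, which is not given in the sources used here.

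**Figure D3:**
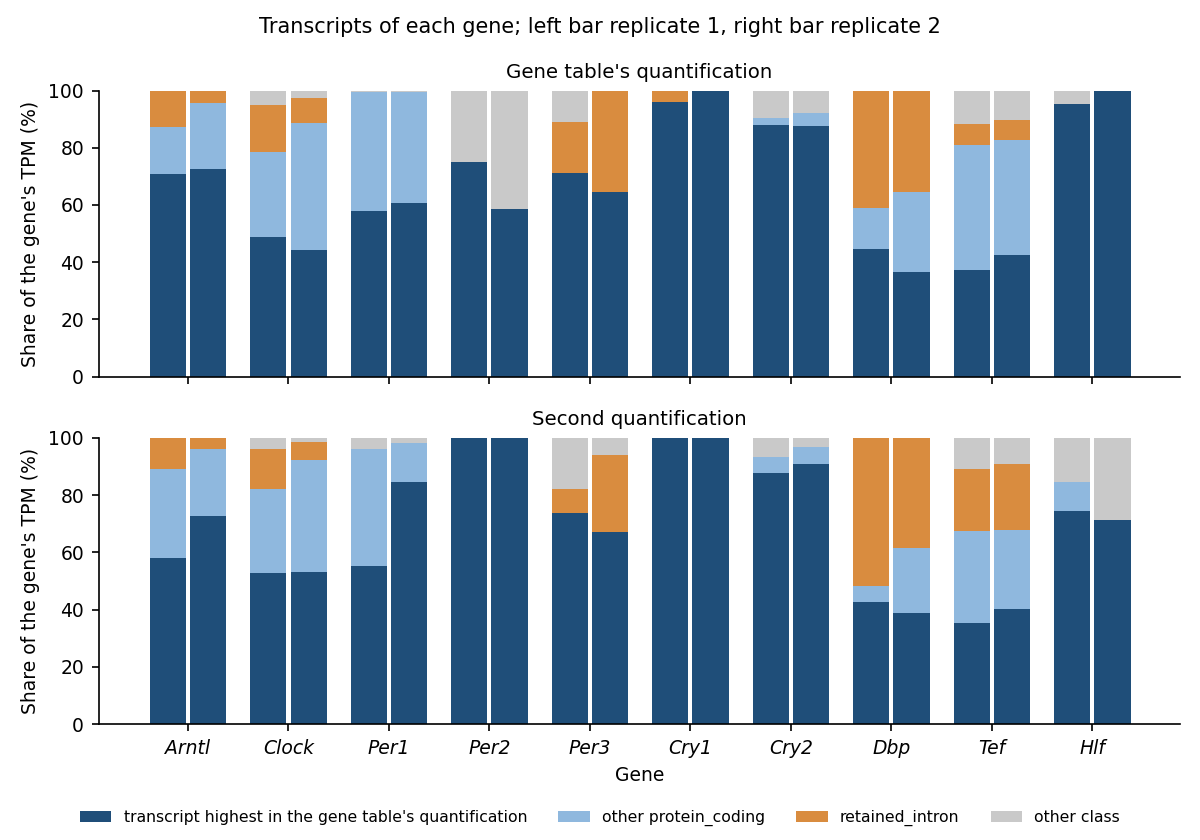
Share of each clock gene's TPM by transcript class, for the gene table's quantification above and the second quantification below, with the left bar of each pair for replicate 1 and the right bar for replicate 2. Cry1 and Cry2 are mostly 1 transcript in both, Dbp holds a large retained-intron share in both, and the share of Per2 outside its coding transcript appears in the upper panel alone.

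The libraries differed beyond counting error in 5 of the 10 genes, with Per1, Per2, Per3 and Tef higher in replicate 1 and Clock higher in replicate 2. The measure was an exact binomial test on rounded counts with libraries scaled by TMM (trimmed mean of M-values), adjusted by Benjamini-Hochberg over 17245 genes. It compares these 2 libraries and no conditions. It called 21.3% of all genes tested, 10.7% higher in replicate 1 and 10.6% higher in replicate 2. Among the 12078 genes at a mean of 1 TPM or more it called 27.4%, 13% higher in replicate 1 and 14.3% higher in replicate 2. Among the 8167 genes counted 535 times or more in all, the number for Hlf, the least counted member, it called 33.9%, 15.3% higher in replicate 1 and 18.6% higher in replicate 2. With 10 genes, 5 called is read against these shares and is no result about the group as a whole.

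Per2 differed most. It had 577 counts in replicate 1 and 275 in replicate 2, a fold of 1.89 in scaled counts with a 95% counting interval of 1.64 to 2.19 (exact binomial test, adjusted p = 1.5e-17), and 1.70% of genes at a mean of 1 TPM or more differed by as much in either direction. Per3 had 659 and 426 counts, a fold of 1.39 (interval 1.23 to 1.58; exact binomial test, adjusted p = 1.2e-06), and Per1 had 3579 and 2637 counts, a fold of 1.22 (interval 1.16 to 1.29; exact binomial test, adjusted p = 1.1e-13). The 3 Per genes thus lay on the same side, in the order Per2, Per3 and Per1, and the interval of Per2 lay above those of Per3 and Per1, which overlap each other. In TPM the log2 difference of Per2 was 0.49 with a pseudocount of 1, against 0.92 in scaled counts, and the short Per2-202 added 1.04 TPM in replicate 1 and 1.11 in replicate 2. Tef differed by a fold of 1.09 (interval 1.04 to 1.13; exact binomial test, adjusted p = 0.00095), a difference that 54.1% of genes reached or passed.

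Clock was the one member called higher in replicate 2, with 1320 counts in replicate 1 and 1387 in replicate 2. Its log2 difference was -0.22 in scaled counts, replicate 1 minus replicate 2 (exact binomial test, adjusted p = 0.00067), but -0.06 in TPM, where the intervals of the quantifier, 5.74 to 6.62 in replicate 1 and 6.00 to 6.92 in replicate 2, overlap. Arntl (-0.04), Cry1 (-0.13), Cry2 (0.09), Dbp (-0.10) and Hlf (0.24) were not called, with adjusted p from 0.19 for Hlf to 0.82 for Arntl (exact binomial test). With TMM scaling their counting intervals reached at most 1.40-fold, for Hlf, so larger differences at that scaling lie outside them. With libraries scaled by the added ERCC RNAs, differences in scaled counts moved by a median of log2 0.29 toward replicate 1, and the median of genes at 1 TPM or more stood at 0.28. The 3 Per genes and Tef were called in the same direction there. Arntl (log2 0.25, below that median), Cry2 (log2 0.38) and Hlf (log2 0.53) were also called higher in replicate 1. Cry1 (log2 0.16) and Dbp (log2 0.19) were not called. Clock turned to 0.07, below that median, and was not called (adjusted p = 0.30, exact binomial test). Among the further genes named below as higher in replicate 2, those with a log2 difference nearer to 0 than -0.29 likewise change sign under that scaling.

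**Figure D4:**
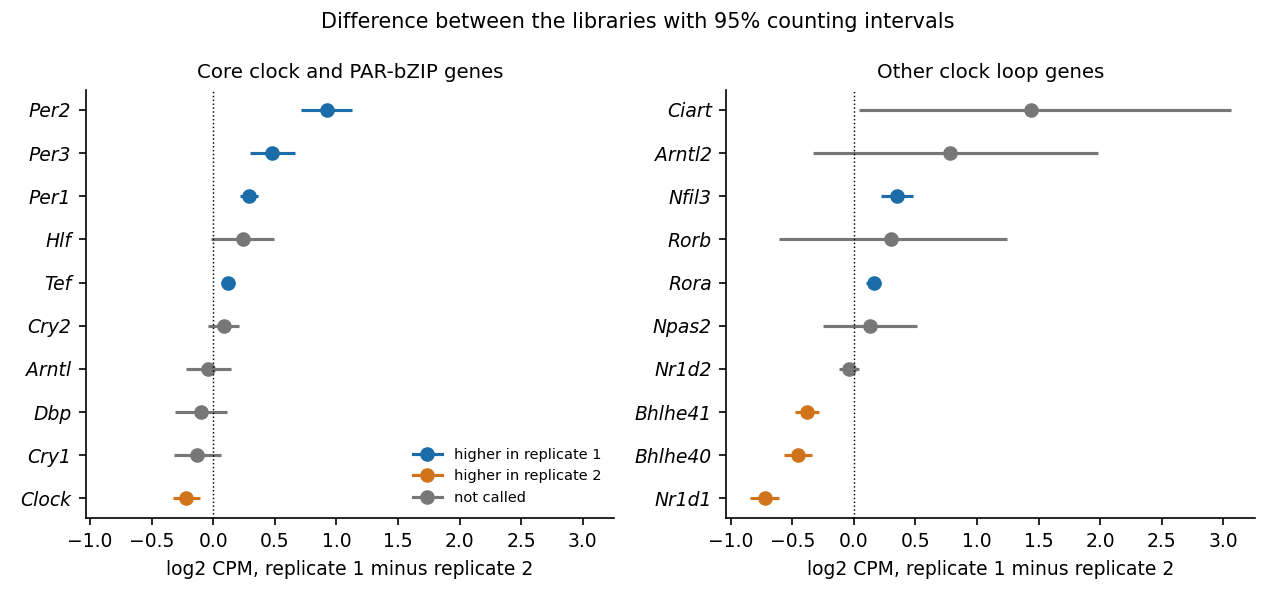
Difference in scaled counts between the libraries, as log2 CPM of replicate 1 minus replicate 2, for the 10 clock genes (left) and 10 other genes of the clock loops (right). Points are the values, lines the 95% counting intervals, and colours the call at an adjusted p under 0.05. The 3 Per genes lead the left panel at 0.92, 0.48 and 0.29, and Nr1d1 stands lowest in the right panel at -0.72.

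The other genes of the clock loops were split between the libraries. Of 10 genes, all tested, 2 were higher in replicate 1, 3 higher in replicate 2 and 5 not called, with a median log2 difference of 0.15 beside 0.01 over all genes tested. The 6 genes at 1 TPM or more in both libraries had a median of -0.21, on the other side of 0, while the values above 0 included those of the sparsely counted Ciart (18 counts in replicate 1 and 6 in replicate 2), Arntl2 (21 and 11) and Rorb (26 and 19), none of them called. Nr1d1, which encodes the repressor REV-ERB alpha, had 12.32 TPM in replicate 1 and 19.26 in replicate 2, a log2 difference of -0.72 (exact binomial test, adjusted p = 8.7e-34). The repressors of E-box genes Bhlhe40 (13.63 and 17.96 TPM; log2 -0.45) and Bhlhe41 (13.46 and 15.92 TPM; log2 -0.38) were also higher in replicate 2. Nfil3, the repressor that opposes the PAR-bZIP factors at D-boxes, was higher in replicate 1 (18.03 and 13.63 TPM; log2 0.35), together with the nuclear receptor Rora, an activator at the RORE (24.12 and 20.60 TPM; log2 0.16). The Per genes and Nr1d1, all of them known targets of CLOCK and BMAL1, lay on opposite sides. Among further targets, Cry1 (log2 -0.13), Cry2 (log2 0.09) and Dbp (log2 -0.10) were not called. The targets named here are not a full list. The part of CLOCK and BMAL1 in these differences was not tested. Nr1d2 (22.91 and 22.22 TPM; log2 -0.04) was not called. Ciart, a repressor of CLOCK and BMAL1, Rorb and Arntl2 stayed below 1 TPM in both libraries.

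Of 15 tested genes whose proteins modify or bind clock proteins, 10 were not called. The others were higher in replicate 1 (2 genes) or in replicate 2 (3 genes), beside 10.7% and 10.6% of all genes tested. The median log2 difference of the 15 genes was -0.02. The most abundant were Usp2, a deubiquitinase that is also in the list of outputs (101.06 TPM in replicate 1 and 89.89 in replicate 2), Prkaa2, the catalytic subunit of AMP kinase found in muscle (40.09 and 44.91 TPM), Csnk2a1, a subunit of casein kinase 2 (33.15 and 34.16 TPM), and Csnk1d, the kinase that marks Per proteins for breakdown (25.67 and 21.99 TPM, not called). Fbxw11, a ubiquitin ligase subunit, was also higher in replicate 1 (24.06 and 22.40 TPM), and the kinase Gsk3a higher in replicate 2 (21.01 and 22.04 TPM). Fbxl21 had 1 and 4 counts and was not tested.

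Genes known as outputs of the clock, in muscle or elsewhere, numbered 16. Of these, 8 were higher in replicate 1, 2 higher in replicate 2 and 6 not called, with a median log2 difference of 0.20. Over all genes tested, 10.7% were called higher in replicate 1 and 10.6% higher in replicate 2. Among genes counted 535 times or more, the shares were 15.3% and 18.6%. Pdk4, a kinase that limits glucose oxidation, had 893.21 TPM in replicate 1 and 316.89 in replicate 2 (log2 1.44), and the cell cycle inhibitor Cdkn1a had 31.91 and 15.32 TPM (log2 1.02). Ucp3, a mitochondrial carrier (89.14 and 50.86 TPM; log2 0.76), Tcap, a protein of the Z-disc (505.72 and 316.70 TPM; log2 0.62), and Ppp1r3c, a glycogen-targeting subunit (103.76 and 90.20 TPM; log2 0.15), lay on the same side. Coq10b, of coenzyme Q function (3.52 and 4.91 TPM; log2 -0.59), and the myogenic factor Myod1 (10.97 and 12.69 TPM; log2 -0.26) were higher in replicate 2, and Alas1, of haem synthesis, was not called (105.75 and 104.83 TPM). Pdk4 is also induced by glucocorticoids and by fasting.

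Genes that answer signals known to act on the Per genes from outside the loop were measured in the same libraries. Glucocorticoids are known to induce Per1. All 12 listed glucocorticoid-induced genes, Per1 among them, were higher in replicate 1, with a median log2 difference of 0.82. Of all genes tested, 10.7% were called higher in replicate 1, and 15.3% of those counted 535 times or more. The list was chosen with earlier results of these data known and holds Per1 itself, so it is no independent measure of a hormone effect. Fkbp5, a chaperone of steroid receptors, had 47.08 TPM in replicate 1 and 10.55 in replicate 2, and the metal-binding Mt2 had 92.92 and 22.90 TPM. With log2 0.29, Per1 lay among the smaller differences of this list, near Sgk1, a kinase (147.83 and 118.99 TPM; log2 0.26), and below Tsc22d3, a mediator of the hormone's effect on immune cells (110.08 and 76.28 TPM; log2 0.49). Of 15 immediate early genes, the first to answer a stimulus, 3 were higher in replicate 1 and 5 higher in replicate 2, among the second Atf3 (1.88 TPM in replicate 1 and 15.59 in replicate 2), Fos (4.00 and 8.01 TPM) and Nr4a1 (22.13 and 38.93 TPM). The part of these genes, and of the marker lists above, in the differences of the clock genes was not tested, and a difference in the hour of collection cannot be told apart from other differences between the libraries.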

How the data were processed

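Per the labels and the deposited file descriptions, tables were made on mm10 with the GENCODE M21 annotation, and which aligner and quantifiers were used is not given in the sources used here. For each library the authors deposited a gene and a transcript table from transcriptome alignments, and a second transcript table from the reads and an index. Per the file headers these hold expected counts (estimated, not whole) and TPM scaled over all entries, and the deposited gene table adds the quantifier's bounds of the TPM, here called its interval and a signal column. The second quantification was summed per gene. Each column used belonged to 1 library.

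Members were matched by symbol. Counts were rounded, annotated genes counted 10 times or more in all were tested with a two-sided exact binomial test (SciPy 1.17.1) on TMM-scaled libraries (edgeR 4.0.16, R 4.3.3), and p-values were adjusted by Benjamini-Hochberg with a threshold of 0.05. The test was checked on counts simulated with counting error alone, which says nothing on how it behaves under spread between libraries. Counting intervals are exact 95% binomial (Clopper-Pearson) intervals and cover counting error only, and p-values measure only the spread within these reads. A count of 3 is worth 0.0735 CPM in replicate 1 and 0.0804 in replicate 2. Levels, ratios and shares are means of 2 libraries with their SD and carry no test. Alternatives were DESeq2 (1.42.0) size factors, ERCC or total scaling, other count filters (none, or 50), a pseudocount of 0.1, TPM over nuclear protein-coding genes, the second quantification and each library alone.

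Members and lists were chosen with earlier results of these data known. From each list, the 4 genes with the highest mean TPM and, of those called, the 3 with the largest difference in each direction may be named, besides all members and loop genes. Not every such gene is printed, and 1 gene of the loop list is not reported here and was left out of its counts. Transcripts named with shares have at least 10% in the mean, or were chosen after their values were seen. Promoter windows and their sequences are RefSeq's (GRCm38.p6), and the motifs are known clock, cyclic AMP and glucocorticoid elements. Reads were not split by allele, and the reference does not hold CAST alleles.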

Additional observations from a re-analysis of the deposited data

How the results depend on the processing

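The calls of the 5 members between the libraries kept their direction under DESeq2 size factors, total counts, both other count filters and the second quantification. Scaling by added ERCC RNAs raised the genes called to 9052, against 3671, and gave 7 members higher in replicate 1 and 0 higher in replicate 2, and the log2 difference of Clock reversed to 0.07. That scaling moves all genes alike, by a median of log2 0.29. In the second quantification the ratio was 6.33 for Per1 over Per3, 0.643 for Per2 over Per3 and 26.1 for Tef over Hlf. As ratios of counts, which ignore length, the values were 0.372 for Arntl over Clock, 7.90 for Per1 over Per2, 5.81 for Per1 over Per3, 0.761 for Per2 over Per3, 2.47 for Cry2 over Cry1, 0.0809 for Dbp over Tef, 1.39 for Dbp over Hlf and 17.1 for Tef over Hlf. TPM scaled over nuclear protein-coding genes alone raised the level of all 10 members, to 101 TPM for Tef, 67.4 for Per1 and 3.36 for Hlf, a scaling that cancels in ratios between genes of a library. With 1 library left out, Per1 over Per2 ranged from 8.41 to 10.5 and Per2 over Per3 from 0.912 to 1.05. The leading transcript's share moved by more than its SD in 6 of 10 genes in the second quantification. No paired analysis was possible because the series has a single group. Depth limits Hlf, Dbp and Per2 most, with 232 to 577 counts per library.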
